A study of Mus musculus with 8 samples.

Results

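Astrocytes release proteins that help neurons to form and mature synapses, and 8 genes of such proteins are described here in brains of newborn mice whose mothers drank cadmium. The genes are *Sparcl1*, *Sparc*, *Gpc4*, *Gpc6*, *Thbs1*, *Thbs2*, *Thbs4* and *Chrdl1*. They were chosen by name, and 8 of 8 were found by their Ensembl identifiers among the 49585 genes of the count table for the C57BL/6J genome. Each brain came from a female F1 pup of a C57BL/6J mother and a CAST/EiJ father, taken whole on postnatal day 1. The drinking water of the dams held CdCl2 at 0 ppm (4 brains, the controls) or at 50 ppm (4 brains, called exposed here) before and throughout pregnancy, and every pup came from another litter. Comparing the doses asks whether cadmium given to the mother alters the RNA of these genes in the brain of the pup. Libraries held 22916434 to 30708087 counted reads, and levels are given in CPM, counts scaled to library size after TMM normalization. A gene with a count of 0 may still have up to 3 reads at its true level, which is 0.0980 to 0.132 CPM here if counting is the only source of error. The label of these genes as astrocyte factors rests on what is known of them, because a whole brain holds RNA of all its cells.

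Hevin, the product of *Sparcl1*, is a matricellular protein that bridges adhesion proteins of axon and dendrite and so promotes excitatory synapses. SPARC is its closest relative and can block the synapse-forming action of hevin. Thrombospondins bind the calcium channel subunit encoded by *Cacna2d1* and induce synapses that lack working AMPA receptors, while the glypicans encoded by *Gpc4* and *Gpc6* bring AMPA receptors to the synapse. Chordin-like 1, a secreted antagonist of bone morphogenetic proteins (BMPs), is credited with the switch to mature AMPA receptors. In mice most astrocytes arise and mature after birth, and *Sparcl1* and *Sparc* are also transcribed in cells of blood vessels.

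*Sparcl1* (ENSMUSG00000029309) lies on the minus strand of chromosome 5 of GRCm38 from 104079111 to 104113733, and its exons overlap no other gene. Its level in the control brains was 510 CPM in 0 ppm replicate 1, 555 CPM in replicate 2, 665 CPM in replicate 3 and 524 CPM in replicate 4. In the exposed brains it was 718 CPM in 50 ppm replicate 1, 786 CPM in replicate 2, 711 CPM in replicate 3 and 811 CPM in replicate 4. Every exposed brain thus lay above every control brain, and 0 ppm replicate 3 was the control nearest to the exposed brains. These levels rest on 13523 to 22396 reads per brain. The fitted difference was a log2 fold change of 0.43 (95% confidence interval 0.25 to 0.60), or 34.3% more RNA at 50 ppm (interval 19.2% to 51.2%). The adjusted p of *Sparcl1* was 0.169 by the quasi-likelihood test of edgeR, counting all 23113 tested genes, so it was not called at the threshold of 0.05. It had the rank 8 of all genes by p-value. With DESeq2, the tool used by the authors, the adjusted p was 0.0127 and *Sparcl1* was called. By an exact two-sided permutation test on log2 CPM, *Sparcl1* had p = 0.0286, and no lower p is possible with 4 brains per dose. *Sparcl1* is among the genes that the study picked from these same brains, so its difference is not independent evidence. Without 0 ppm replicate 3 the log2 fold change was 0.51 and the adjusted p from edgeR was 0.00457. With any other single brain left out the adjusted p from edgeR was 0.149 to 0.820, and *Sparcl1* was not called. The highest of these came without 50 ppm replicate 4, where the log2 fold change was 0.39. Across all alternatives tried the adjusted p ranged from 0.00307 to 0.820. In whole tissue, a change in the number of cells of a type and a change in the RNA per cell cannot be told apart.

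*Sparc* (ENSMUSG00000018593), on the minus strand of chromosome 11 from 55394500 to 55423183, encodes a collagen-binding matricellular protein. Its control levels were 300.1, 287, 310.2 and 268 CPM in 0 ppm replicates 1 to 4. Its exposed levels were 314, 341, 323 and 352 CPM in 50 ppm replicates 1 to 4. The exposed brains again all lay above the controls, but 50 ppm replicate 1 and 0 ppm replicate 3 were close neighbours. The log2 fold change of *Sparc* was 0.19 (interval 0.05 to 0.33), or 14.0% more RNA (interval 3.33% to 25.8%), with an adjusted p of 0.999 from edgeR. The exact two-sided permutation p of *Sparc* was 0.0286, again the smallest possible value. DESeq2 did not call *Sparc* either.

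**Figure D1:**
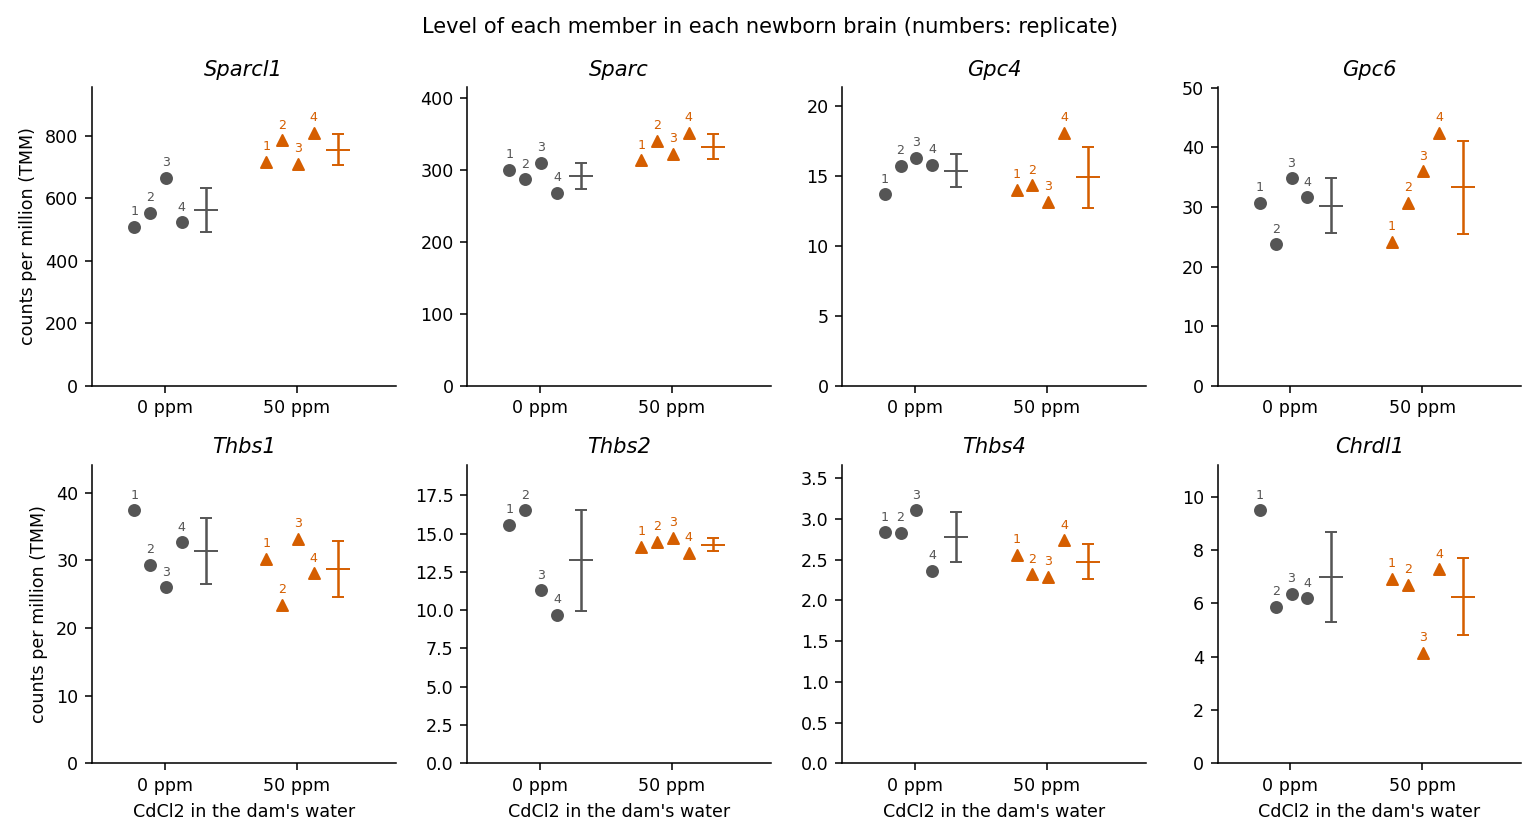
Level of each of the 8 genes in CPM (vertical axes, starting at 0) in each brain by the dose of CdCl2; points carry replicate numbers, and the bars beside them are the mean and SD of 4 brains. The exposed brains lie above all controls for *Sparcl1* (711 to 811 CPM against 510 to 665 CPM) and *Sparc*, and the doses overlap for the other 6 genes.

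The balance of hevin and SPARC RNA was taken as the count of *Sparcl1* over the count of *Sparc* in each brain, which needs no library size. That ratio was 1.70, 1.93, 2.14 and 1.95 in 0 ppm replicates 1 to 4. In the exposed brains it was 2.29, 2.30, 2.20 and 2.30 in 50 ppm replicates 1 to 4. All exposed ratios were higher than all control ratios, and they lay closer together (SD 0.0488, n = 4) than those of the controls (SD 0.183, n = 4). On the log2 scale the mean ratio was 0.94 at 0 ppm and 1.19 at 50 ppm. The means differ by 0.24, with an exact permutation p = 0.0286 (two-sided) that becomes 0.0857 when adjusted over the 3 ratios planned. Because 0.0286 is the smallest p possible here, a ratio could not pass 0.05 on its own after that adjustment. *Sparcl1* was put in the group with its higher level in these same brains known, so a ratio with it as numerator is a description and not independent evidence. In fits that left out an exposed brain the difference was 0.23 to 0.26, with an exact permutation p of 0.0571. In fits that left out a control brain the exact permutation p was 0.0286. The size depended most on 0 ppm replicate 1, with a difference of 0.18 without it.

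The same ratio was then formed with every other gene of the group, a choice made after the values were seen. The log2 ratio of *Sparcl1* to *Gpc4* was higher at 50 ppm by 0.48 and that to *Thbs4* by 0.60, with every exposed brain above every control brain (exact two-sided permutation tests, p = 0.0286 each, and 0.0667 after Benjamini-Hochberg adjustment over 7 ratios). Ratios of *Sparcl1* to *Gpc6*, *Thbs1*, *Thbs2* and *Chrdl1* were also higher on average at 50 ppm, by 0.31, 0.56, 0.29 and 0.59 on the log2 scale, but their doses overlapped. For these 4 ratios the exact permutation p lay between 0.0571 and 0.314. No ratio passed the threshold after adjustment. With 0.0286 as the smallest p possible, no ratio could have passed on its own, even with its doses fully apart. A difference between *Sparcl1* and any single other gene of the group is therefore not established by these tests, and its absence is not shown. The log2 ratio of *Sparc* to *Thbs4* was higher in each exposed brain as well, by 0.36 on average (exact permutation test, p = 0.0286, and 0.171 after adjustment over 6 ratios). For *Chrdl1*, *Thbs1* and *Gpc4* the log2 ratio of *Sparc* to the gene was higher by 0.35, 0.31 and 0.24 on average, with overlapping doses (exact permutation p = 0.2, 0.143 and 0.0571). Ratios of *Sparc* to *Gpc6* and *Thbs2* were higher by 0.07 and 0.05 on the log2 scale (exact permutation p = 0.800 for each).

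**Figure D2:**
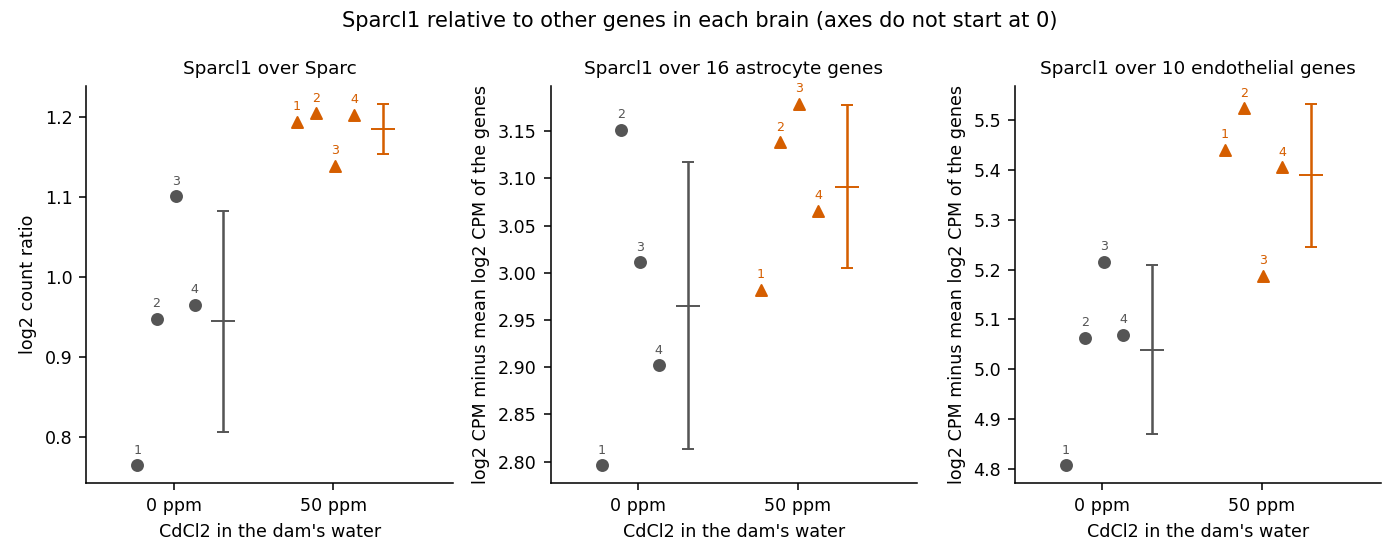
*Sparcl1* relative to other genes in each brain by dose: log2 of the *Sparcl1* to *Sparc* count ratio (left), and log2 CPM of *Sparcl1* minus the mean log2 CPM of 16 astrocyte genes (middle) and of 10 endothelial genes (right); bars are the mean and SD of 4 brains. Exposed brains lie above all controls for the ratio to *Sparc*, while 3 of 4 do so for the endothelial genes and 1 of 4 for the astrocyte genes.

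The glypicans are heparan sulfate proteoglycans held to the membrane by a lipid anchor and shed from astrocytes. *Gpc4* (ENSMUSG00000031119, chromosome X, 52053021 to 52165252, minus strand) had 13.7, 15.7, 16.3 and 15.8 CPM in 0 ppm replicates 1 to 4 and 14.0, 14.3, 13.2 and 18.1 CPM in 50 ppm replicates 1 to 4. Its highest and its lowest level were both in exposed brains, in replicates 4 and 3. The log2 fold change of *Gpc4* was -0.05 (interval -0.29 to 0.20), which allows a level at 50 ppm up to 14.5% higher than at 0 ppm. *Gpc6* (ENSMUSG00000058571, chromosome 14, 116925315 to 117976544, plus strand) had 30.7, 23.7, 34.8 and 31.6 CPM in the controls and 24.1, 30.7, 36.0 and 42.4 CPM in the exposed brains, in the order of their replicate numbers. It varied most among the exposed brains, where 50 ppm replicate 1 was near the lowest control and replicates 3 and 4 were above every control. Its log2 fold change was 0.14 (interval -0.16 to 0.44). This was 0.0011 without 50 ppm replicate 4 and 0.27 without 50 ppm replicate 1. With 0 ppm replicates 1 and 2 left out together its sign turned (-0.0047). Neither glypican was called, with an adjusted p of 0.999 for each from edgeR, and the sign of *Gpc4* turned without 50 ppm replicate 3 (0.01).

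The thrombospondins were expressed at lower levels than hevin and SPARC. *Thbs1* (ENSMUSG00000040152, chromosome 2, 118111876 to 118127133, plus strand) is the family member also known from platelets, and 3.43% of its exon bases also lie in an opposite-strand gene. It had 37.4, 29.4, 26.0 and 32.7 CPM in 0 ppm replicates 1 to 4 and 30.2, 23.5, 33.2 and 28.1 CPM in 50 ppm replicates 1 to 4. The doses overlapped widely, and the log2 fold change of *Thbs1* was -0.13 (interval -0.37 to 0.12). This was -0.03 without 0 ppm replicate 1, -0.04 without 50 ppm replicate 2 and -0.21 without 0 ppm replicate 3. *Thbs2* (ENSMUSG00000023885, chromosome 17, 14665500 to 14694235, minus strand) had 15.6, 16.5, 11.3 and 9.68 CPM in the controls and 14.1, 14.5, 14.7 and 13.8 CPM in the exposed brains. The exposed brains were alike, and the controls fell on both sides of them, with replicates 1 and 2 above and replicates 3 and 4 below. Its log2 fold change of 0.11 (interval -0.20 to 0.41) therefore depended on which controls were used, at -0.02 without 0 ppm replicate 4 and 0.44 with 0 ppm replicates 1 and 2 left out together. *Thbs4* (ENSMUSG00000021702, chromosome 13, 92751590 to 92794818, minus strand), the thrombospondin best known from adult astrocytes and muscle, was counted by 61 to 95 reads per brain. Its levels were 2.83, 2.83, 3.10 and 2.36 CPM in the controls and 2.56, 2.32, 2.28 and 2.74 CPM in the exposed brains, all of which were under the control mean. Replicates 2 and 3 at 50 ppm were also under the lowest control, while replicates 1 and 4 lay within the range of the controls. The log2 fold change of *Thbs4* was -0.17 (interval -0.54 to 0.20). All 3 thrombospondins had an adjusted p of 0.999 from edgeR.

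*Chrdl1* (ENSMUSG00000031283, chromosome X, 143285674 to 143394262, minus strand) was counted by 116 to 278 reads per brain. Its levels were 9.49, 5.88, 6.37 and 6.20 CPM in 0 ppm replicates 1 to 4 and 6.91, 6.71, 4.14 and 7.28 CPM in 50 ppm replicates 1 to 4. Both extremes were single brains, with 0 ppm replicate 1 above and 50 ppm replicate 3 below all others. The log2 fold change of -0.16 (interval -0.56 to 0.23, adjusted p 0.999 from edgeR) was 0.02 without 0 ppm replicate 1 and 4.4e-05 without 50 ppm replicate 3, so it came to nearly 0 when either brain was dropped.

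Over all genes tested, edgeR called 4 genes at an adjusted p under 0.05, which is 0.0173% of 23113, and none of the 8 genes was among them. At an unadjusted p under 0.05, 2 of the 8 were higher at 50 ppm (*Sparcl1* and *Sparc*), where 2.31% of all genes were, and 0 of the 8 were lower, where 1.44% of all genes were. The number of the 8 at an unadjusted p under 0.05 was 1 without 0 ppm replicate 4 and 3 without 50 ppm replicate 1. It was also 3 with 0 ppm replicates 1 and 2 left out together. DESeq2 called 1 of the 8 (*Sparcl1*), against 0.0862% of the 20871 genes to which it gave an adjusted p. In 2 of the 8 every exposed brain exceeded every control brain, as in 1.19% of all genes, and in none was the order the opposite, as in 0.904%. Because the group was proposed with the levels of *Sparcl1* known, its own place in these counts is a description. Of the 8 log2 fold changes 4 were positive and 4 negative, with a median of 0.03 beside -0.0033 over all genes tested. A log2 fold change above that of *Sparcl1* was found in 2566 of all 23113 genes tested (11.1%), and in 38 of the 10330 genes with a mean of at least 10 CPM (0.368%).

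**Figure D3:**
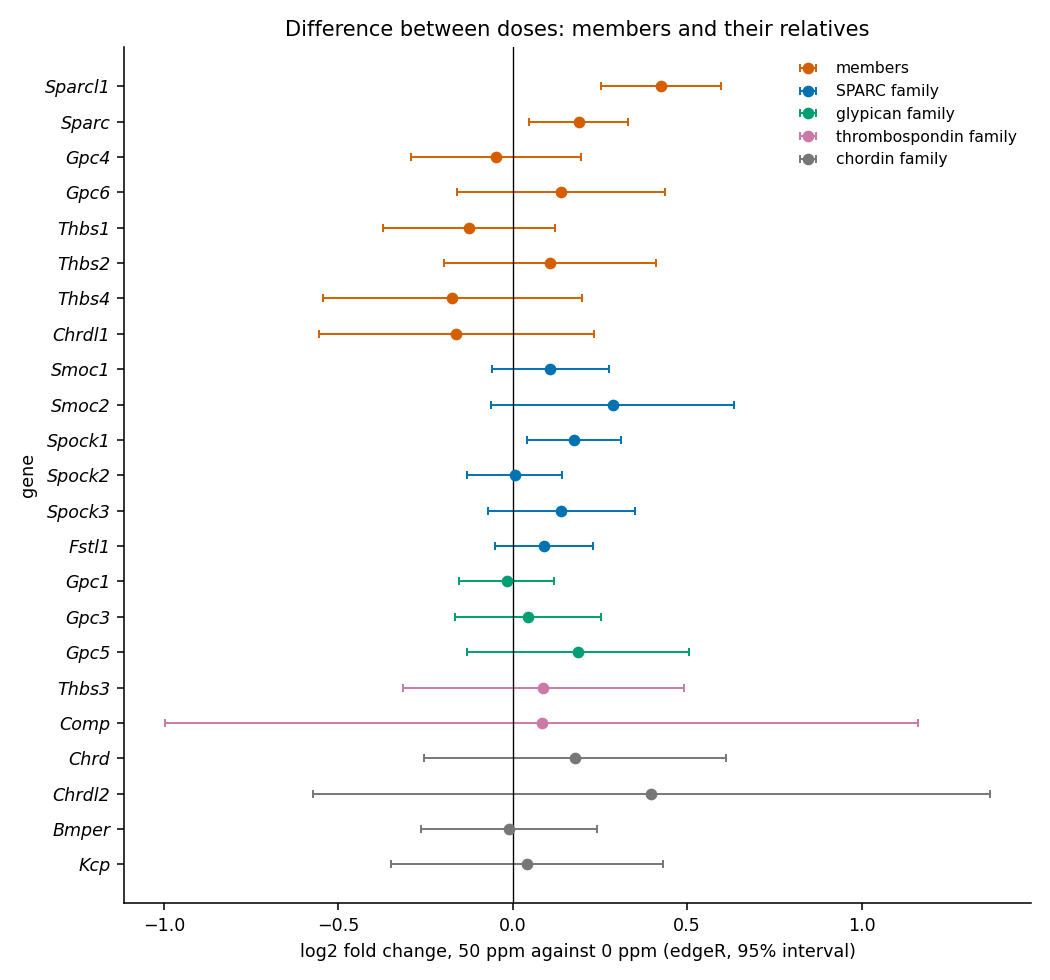
Log2 fold change of 50 ppm against 0 ppm (horizontal axis) for the 8 genes and the tested members of their protein families; points are edgeR estimates and lines are 95% confidence intervals. The intervals of *Sparcl1* (0.25 to 0.60), *Sparc* (0.05 to 0.33) and *Spock1* lie above 0, before any adjustment over genes, and all others include 0.

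To compare levels between genes, reads were divided by the exon length of each gene and are given as CPM per kb of exon. On this scale *Sparcl1* was highest at 225 ± 40.1 (SD over 8 brains), followed by *Sparc* at 82.4 ± 7.22. *Sparcl1* exceeded *Sparc* in 8 of 8 brains without overlap, and *Sparc* exceeded all others in the same way. *Gpc4* (5.71 ± 0.618), *Thbs1* (4.95 ± 0.722) and *Gpc6* (4.94 ± 0.960) came next, and neighbours among these 3 overlapped at both doses and did not differ beyond their spread. *Thbs2* (1.97 ± 0.320) lay below *Gpc6* in every brain. *Chrdl1* (0.980 ± 0.222) lay below *Thbs2* in every brain, although their ranges overlapped at 0 ppm, and *Thbs4* was lowest at 0.799 ± 0.0897, overlapping *Chrdl1*. By CPM without length correction, *Sparcl1* was the gene of rank 116 among the 23113 tested and *Sparc* had rank 504.

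Adding the length-corrected levels of the 8 genes gave 273, 283, 328 and 268 CPM per kb in 0 ppm replicates 1 to 4 and 345, 376, 347 and 391 in 50 ppm replicates 1 to 4. *Sparcl1* made up 63.5%, 66.7%, 69.1% and 66.4% of this sum in the controls and 70.8%, 71.3%, 69.8% and 70.6% in the exposed brains. Its share was thus higher in every exposed brain than in every control brain, with 0 ppm replicate 3 again nearest. The share of *Sparc* was 25.0% to 29.0% in the controls and 23.8% to 24.6% in the exposed brains. *Gpc4*, *Gpc6*, *Thbs1*, *Thbs2*, *Thbs4* and *Chrdl1* together held 5.90% to 7.53% in the controls and 4.74% to 5.61% in the exposed brains. These shares follow from the levels given before and were not tested on their own.

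**Figure D4:**
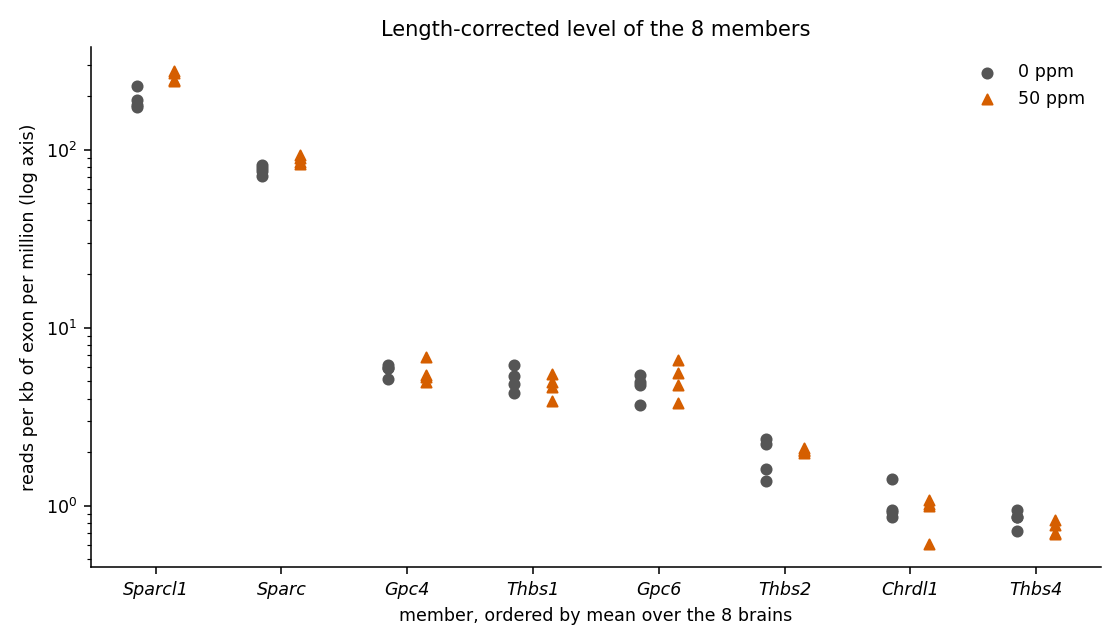
CPM per kb of exon (vertical log axis) of the 8 genes in each control brain (circles) and exposed brain (triangles), ordered by their mean over 8 brains. *Sparcl1* (174 to 276) and *Sparc* (70.8 to 92.9) stand apart from the other 6 genes, which lie between 0.612 and 6.82.

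Relatives of the 8 genes show whether their families differed between doses. Of 6 further genes of the SPARC family, all had a positive log2 fold change (median 0.12), where 11318 of all 23113 genes tested had. None of the 6 was called after adjustment by edgeR or DESeq2. At an unadjusted p under 0.05, 1 of 6 was higher at 50 ppm, where 2.31% of all genes were. That gene was *Spock1*, a proteoglycan of neurons, with 218, 229, 214 and 221 CPM in the controls and 244, 242, 240.4 and 269.8 CPM in the exposed brains. Its log2 fold change was 0.17 (interval 0.04 to 0.31), close to that of *Sparc*. *Smoc2* had 2.65 to 3.55 CPM in the controls and 3.57 to 4.42 CPM in the exposed brains, a log2 fold change of 0.29 (interval -0.06 to 0.64). In *Spock1* and *Smoc2* every exposed brain lay above every control brain, as in 1.19% of all genes tested. *Spock2*, which took most of the reads of this family list, had a log2 fold change of 0.01. Among 4 other glypicans 3 were tested, *Gpc2* was below the filter, and none of the 3 had an unadjusted p under 0.05 (median log2 fold change 0.04). Exons of *Gpc2* share 55.6% of their length with a gene on the same strand, so its low count is uncertain. The 2 other thrombospondin family genes, *Thbs3* and *Comp*, had log2 fold changes of 0.09 and 0.08. None of 4 chordin family genes had an unadjusted p under 0.05 either (median 0.11), and *Bmper* took more reads than any other of the 4. In these 3 families no gene was called by DESeq2.

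Other secreted factors ascribed to astrocytes included 3 of 11 genes with an unadjusted p under 0.05, all higher at 50 ppm, where 2.31% of all genes tested were. None of the 11 was called by edgeR after adjustment (median log2 fold change 0.16). *Apoe*, which carries cholesterol to neurons, had 356, 342, 398 and 353 CPM in the controls and 469, 493, 389 and 468 CPM in the exposed brains, a log2 fold change of 0.33 (adjusted p 0.366 from edgeR). *Apoe* was the nearest to *Sparcl1* in length-corrected level among the genes most like it in pattern, at 191 ± 28.0 CPM per kb over 8 brains. *Il33*, a cytokine of astrocytes and oligodendrocytes that makes microglia engulf synapses, had 3.24 to 5.19 CPM in the controls and 7.26 to 9.71 CPM in the exposed brains. Its log2 fold change was 0.89 (adjusted p 0.169 from edgeR), DESeq2 called it, and it is also among the genes the study picked from these brains. *Sema3a*, an axon-repelling semaphorin, had a log2 fold change of 0.18 (interval 0.003 to 0.36). *Ncan*, the neurocan gene and the list member with the most reads, had one of -0.01.

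Receptors and partners of the 8 proteins were measured in the same fit. Of 10 partner genes of hevin and thrombospondins, 0 had an unadjusted p under 0.05 and 0 were called by edgeR or DESeq2 (median log2 fold change 0.05). *Cacna2d1*, the thrombospondin receptor, had a log2 fold change of 0.02 (interval -0.15 to 0.18), so that the change of its RNA at 50 ppm was bounded more narrowly than that of any of the 3 thrombospondins. *Nlgn1*, which encodes a neuroligin of the dendrite, had a log2 fold change of 0.12 (interval -0.04 to 0.27). Opposite-strand genes overlap 9.16% of its exon bases. Among 8 glypican partners, such as the receptor phosphatase gene *Ptprs* (-0.05) with the most reads of the list, the median was 0.02 and again 0 had an unadjusted p under 0.05. The 7 genes of BMPs, the targets of chordin-like proteins, and of BMP receptors had a median of 0.12, with 0 at an unadjusted p under 0.05, and *Bmpr2* took most of their reads. For 14 genes of excitatory synapses the median log2 fold change was 0.02 and the range -0.07 (*Gria1*) to 0.12 (*Grin1*), with 0 at an unadjusted p under 0.05. DESeq2 called none of the genes of these 4 lists. The summed CPM of the excitatory synapse genes was 3464, 2969, 3247 and 3399 in the controls and 3355, 3298, 3238 and 3285 in the exposed brains, with *Syp* taking the most reads.

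Markers of the cells that transcribe *Sparcl1* and *Sparc* were set beside them. Of 16 astrocyte genes, 9 had an unadjusted p under 0.05 and all 9 were higher at 50 ppm, where 2.31% of all genes tested were. The median log2 fold change of the 16 was 0.26, and 0 of 16 were called by edgeR after adjustment. DESeq2 called 1 of the 16. The summed level of the 16 was 1992, 1782, 2181 and 1900 CPM in 0 ppm replicates 1 to 4 and 2319, 2375, 2161 and 2567 CPM in 50 ppm replicates 1 to 4. Of the defining markers *Aldh1l1*, *Slc1a3* and *Aqp4* none was at 0. These 3 were not alike. *Aqp4*, the water channel of astrocyte endfeet, had 82.2, 57.9, 117 and 85.9 CPM in the controls and 146, 147, 112 and 156 CPM in the exposed brains, a log2 fold change of 0.71 (interval 0.40 to 1.02). *Gja1* and *Gjb6*, the connexins of the astrocyte network, had log2 fold changes of 0.44 and 0.52. *Slc1a3*, a glutamate transporter, had one of 0.13 (interval -0.02 to 0.29) and *Aldh1l1*, an enzyme of folate metabolism, one of 0.02 (interval -0.17 to 0.21).

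Relative to the mean of the 16 astrocyte genes, log2 CPM of *Sparcl1* was higher by 2.80, 3.15, 3.01 and 2.90 in the controls and by 2.98, 3.14, 3.18 and 3.07 in the exposed brains. These values overlapped, and the difference of the means was 0.13 (exact two-sided permutation test, p = 0.257, and 0.257 adjusted over 3 ratios). A difference of *Sparcl1* beyond that of the average astrocyte gene was therefore not detected in these brains. The size depended on single brains, at 0.07 without 0 ppm replicate 1 and 0.19 without 0 ppm replicate 2 (exact permutation p = 0.457 and 0.0857). With the median in place of the mean it was 0.05 (exact permutation p = 0.743). Against single defining markers the picture was mixed. The length-corrected level of *Sparcl1* was 10.8 to 12.4 times that of *Aldh1l1* in the controls and 14.0 to 16.2 times in the exposed brains, without overlap. It was 4.01 to 5.33 times that of *Slc1a3* in the controls and 5.83 to 6.04 times in the exposed brains, again without overlap. Over *Aqp4* it was 12.1 to 20.3 times in the controls and 10.4 to 13.4 times in the exposed brains, which overlapped. The part of astrocyte number or maturity in the levels of *Sparcl1* was not tested.

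Endothelial genes gave another comparison. None of 10 had an unadjusted p under 0.05 or was called by DESeq2 (median log2 fold change 0.09), and their sum was 292, 247, 294 and 263 CPM in the controls and 268, 261, 321 and 315 CPM in the exposed brains. *Cldn5*, the claudin of the blood-brain barrier and the gene with the most reads of the list, had a log2 fold change of 0.08, and *Cdh5*, the other defining marker, one of 0.09. Neither was at 0. Relative to the mean of the 10, log2 CPM of *Sparcl1* was 5.04 ± 0.169 (SD, n = 4) higher in the controls and 5.39 ± 0.143 higher in the exposed brains. That difference of 0.35 had an exact two-sided permutation p = 0.0571 (0.0857 adjusted over 3 ratios), because 50 ppm replicate 3 fell under 0 ppm replicate 3. Without 50 ppm replicate 3 the difference was 0.42 (exact permutation p = 0.0286). With any other single brain left out it was 0.27 to 0.41, with an exact permutation p of 0.0571 to 0.0857. With the median in place of the mean it was 0.35 (exact permutation p = 0.0857).

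**Figure D5:**
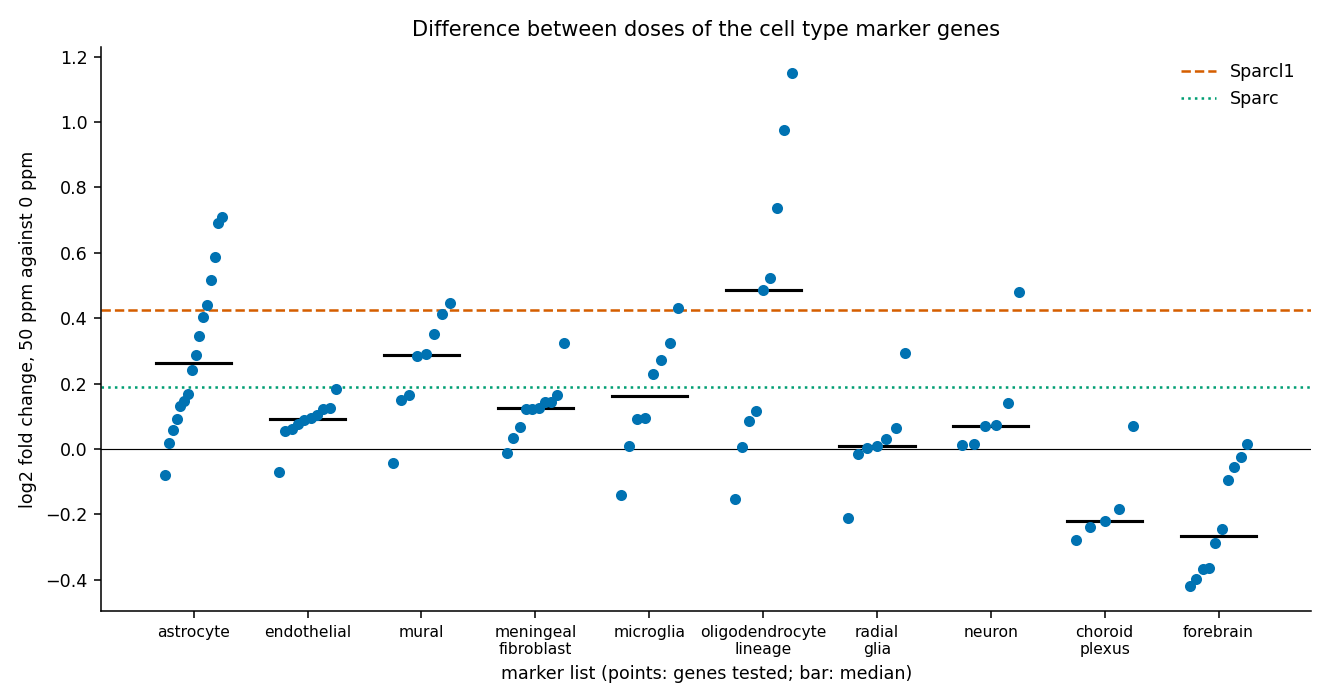
Log2 fold change of 50 ppm against 0 ppm (vertical axis) for the tested genes of 10 marker lists; each point is a gene, black bars are list medians, and the lines across mark *Sparcl1* (0.43, dashed) and *Sparc* (0.19, dotted). The median of the astrocyte list is 0.26, that of the endothelial list 0.09 and that of the forebrain list -0.27.

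Markers of other cell types also differed in part, and their part in the levels of *Sparcl1* and *Sparc* was not tested. For comparison, 2.31% of all 23113 genes tested were higher at an unadjusted p under 0.05 and 1.44% were lower. A positive log2 fold change was found in 11318 of the 23113. Of 8 genes of mural cells, the pericytes and smooth muscle around vessels, 3 had an unadjusted p under 0.05 and were higher (median 0.29). Their sum was 239, 197, 243 and 219 CPM in the controls and 237, 244, 285 and 292 CPM in the exposed brains, *Rgs5* took the most reads, and the defining genes *Pdgfrb* and *Kcnj8* were not at 0. Of 10 genes of meningeal fibroblasts, which also make SPARC, 2 were higher at an unadjusted p under 0.05 (median 0.12). They were *Slc6a13* and *Igf2*, and *Igf2* took the most reads, although 62.8% of its exon bases are shared with another gene of the same strand. The meningeal sum was 936, 868, 1053 and 842 CPM in the controls and 1050, 964, 1053.5 and 1024 CPM in the exposed brains, with neither *Col1a1* nor *Dcn* at 0. Among 8 microglial genes the log2 fold change was positive for 7, and 3 were higher at an unadjusted p under 0.05 (median 0.16), with sums of 139, 108, 138 and 118 CPM against 140.2, 152, 127 and 161 CPM, and *Cx3cr1* and *P2ry12* not at 0. Of 9 genes of the oligodendrocyte lineage 8 had a positive log2 fold change and 5 were higher at an unadjusted p under 0.05 (median 0.49), and *Bcas1*, *Mag*, *Mbp* and *Cnp* among them were picked by the study from these brains. The sums of this list were 393, 376, 421 and 383 CPM in the controls and 466, 496, 391 and 499.6 CPM in the exposed brains, with *Pdgfra* taking the most reads and *Olig2* and *Sox10* not at 0. EdgeR called 1 gene of these 4 lists, *Bcas1*, and DESeq2 called 4, all of the oligodendrocyte lineage.

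Radial glia, the cells from which astrocytes arise, had 1 gene higher (*Hopx*, 0.29) and 1 lower (*Nes*, -0.21) at an unadjusted p under 0.05 among 7 tested. Of all genes tested, 2.31% were higher and 1.44% lower at that threshold. The median of the radial glia genes was 0.0090. Their summed CPM was 943, 763, 1092 and 922 in the controls and 952, 1027, 932 and 842 in the exposed brains, *Fabp7* took the most reads, and *Nes* and *Pax6* were not at 0. The log2 fold change was positive for all 6 neuronal genes tested, and for 11318 of all 23113 genes. Among the 6, 1 was higher at an unadjusted p under 0.05 (*Nefl*, 0.48), and the median was 0.07. The neuronal list summed to 4585, 4043, 4599 and 4520 CPM in the controls and 4527, 4697, 4503 and 4772 CPM in the exposed brains. *Map2* took the most reads of that list, and *Rbfox3* and *Snap25* were not at 0. *Sox2* and *Tubb3*, which neural tissue of this age uses, were listed at 0 in all 8 libraries, so a gene listed at 0 in this table need not be silent. For the choroid plexus 0 of 5 genes had an unadjusted p under 0.05 (median -0.22). Its sum, nearly all from *Ttr*, was 568, 1205, 454 and 499 CPM in the controls and 352, 604, 557 and 802 CPM in the exposed brains, with *Folr1* not at 0.

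RNA levels of genes that mark caudal and rostral regions also differed among the brains. *Hox* genes, which mark hindbrain and spinal cord, summed to 0.0341, 0.818, 19.3 and 33.7 CPM in 0 ppm replicates 1 to 4 and to 134, 47.8, 30.5 and 42.2 CPM in 50 ppm replicates 1 to 4. Of 13 tested, 11 were higher at an unadjusted p under 0.05, where 2.31% of all genes tested were. EdgeR called 3 (0.0173% of all genes) and DESeq2 called 2 (0.0862% of the genes to which it gave an adjusted p). *Hoxb5* took the most reads, and *Hoxb4* was the defining gene. *Hoxa3*, *Hoxa4*, *Hoxa5*, *Hoxc6* and *Hoxd4* were listed at 0 in all libraries. Of 10 forebrain genes 5 were lower and 0 higher at an unadjusted p under 0.05, where 1.44% of all genes were lower and 2.31% higher. DESeq2 called 1 of the 10, *Dlx1*. The forebrain sum was 959, 911, 546 and 692 CPM in the controls and 643, 680, 777 and 691 CPM in the exposed brains, with *Neurod6* taking the most reads. Whether these genes differ through the amount of tissue or through their expression, and their part in the levels of *Sparcl1*, was not tested. With 0 ppm replicates 1 and 2 left out together, a choice made after the values were seen, the log2 fold change of *Sparcl1* was 0.34 and that of *Sparc* 0.20. Neither was called by edgeR in that fit.

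The genes whose pattern over the 8 brains was most like that of *Sparcl1* were sought among 10324 genes with a mean of at least 10 CPM, which leaves out the 6 of the 8 genes above that level. Likeness was the mean absolute difference of log2 CPM, each gene centred on its own mean. The nearest was *Slc4a4*, the sodium bicarbonate cotransporter of astrocytes, with a difference of 0.05 on the log2 scale. *Slc4a4* lies on chromosome 5 as well, from 88886818 to 89239653, and had 111, 113, 147 and 115 CPM in the controls and 146, 162, 139 and 171 CPM in the exposed brains. Like *Sparcl1*, it was highest among the controls in 0 ppm replicate 3 and highest of all in 50 ppm replicate 4. *Gng12*, a G protein gamma subunit gene, *AI464131*, *Laptm4b*, which encodes a lysosomal membrane protein, and *Apoe* followed, at differences of 0.08 to 0.09. The log2 fold changes of these 5 genes were 0.25 to 0.35, none was called by edgeR, and none had all exposed brains above all controls. These 5 genes were picked for likeness to *Sparcl1* over both doses, so their higher levels at 50 ppm follow from that choice. *Sparc* would take place 59 in this order with a difference of 0.13, and *Gpc4*, *Gpc6*, *Thbs2*, *Thbs4*, *Chrdl1* and *Thbs1* would take places 5121 to 9972.

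The authors also aligned the reads to the CAST/EiJ genome, the genome of the fathers. In that table *Sparcl1* and *Sparc* could be identified, while the other 6 genes were not analysed there. *Sparcl1* had 99.6% to 99.9% as many reads there as in the C57BL/6J table in each brain, and *Sparc* 96.8% to 97.5%. Whether the same reads were counted in both tables was not tested. Levels of *Sparcl1* were 570 to 746 CPM in the controls and 799 to 917 CPM in the exposed brains, without overlap. Its log2 fold change was 0.44 (adjusted p 0.191 from edgeR and 0.00804 from DESeq2) and that of *Sparc* was 0.20. The *Sparcl1* to *Sparc* ratio was 1.75 to 2.20 in the controls and 2.25 to 2.36 in the exposed brains (exact two-sided permutation test of its log2, p = 0.0286). The CAST/EiJ counts come from the same libraries, so they are no second measurement.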

How the data were processed

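Raw gene counts of whole brains were taken as deposited, for alignments to the C57BL/6J (GRCm38) and CAST/EiJ genomes. The authors trimmed and aligned reads with STAR and used htseq-count; tool versions and the strand setting are not stated. Genes with a count in fewer than 1/3 of libraries were dropped. CPM use TMM factors. Doses were compared with edgeR 4.0.16 (glmQLFit, glmQLFTest), adjusting by Benjamini-Hochberg, with DESeq2 1.42.0 as an alternative. Intervals use the standard error |log2 fold change|/√F and the t distribution. Log2 CPM carry a prior count of 2. Exon lengths and overlaps come from GENCODE for GRCm38. CAST/EiJ identifiers were named through the study's supplement.

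Named genes are members, have an unadjusted p under 0.05 (at most 4 per list), take the most reads of a list, define it, or are the 5 most like *Sparcl1*; others were chosen after their values were seen. Some genes that meet these rules are not named, but the counts, medians and sums of their lists include them. Members and lists were chosen with earlier results of these data known. Brains within a dose differed beyond sampling noise (chi-square per degree of freedom 8.67 to 21.1). The code was tested on simulated data.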

Additional observations from a re-analysis of the deposited data

Results flagged for a closer look

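Among 192 groups of 4 brains examined, 15 held a brain far from the other 3, and chance gives about 1 in 20 groups. *Chrdl1* had 9.49 CPM in 0 ppm replicate 1, where the other controls had 5.88 to 6.37 CPM. The log2 ratio of *Sparcl1* to *Sparc* was 1.14 in 50 ppm replicate 3, lower than the 1.19 to 1.20 of the other exposed brains but above every control.

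*Slc4a4*, the gene most like *Sparcl1*, had 147 CPM in 0 ppm replicate 3 against 111 to 115 CPM in the other controls, and *Hopx* had 11.7 CPM in the same brain against 8.09 to 8.59 CPM. In 50 ppm replicate 4, *Spock1* stood apart at 269.8 CPM, *Il33* at 9.71 CPM and *Pdgfra* at 141 CPM, each the highest exposed brain. *Nes* was lowest among the controls in 0 ppm replicate 4, at 100.1 CPM. *Snap25* was lowest among the exposed brains in replicate 3, at 244.0 CPM.

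In 0 ppm replicate 2 the choroid plexus genes summed to 1205 CPM against 454 to 568 CPM in the other controls, with *Ttr* at 1128 CPM and *Folr1* at 12.9 CPM. The neuronal genes summed to 4043 CPM in that brain against 4520 to 4599 CPM. In 50 ppm replicate 1 the *Hox* genes summed to 134 CPM against 30.5 to 47.8 CPM in the other exposed brains, with *Hoxb4* at 7.47 CPM. The *Sparcl1* level was not far from the others in any brain by this measure. The part of these single brains in the results was not tested, except by leaving each out in turn.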

How the results depend on the processing

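The number of genes called by edgeR, 4 here, was 18 with DESeq2, 52 without the filter, 2 with at least 10 counts in 4 libraries, 2 in the CAST/EiJ alignment (20 with DESeq2), 7 with 0 ppm replicates 1 and 2 left out, and 2 to 20 with single brains left out (20 without 0 ppm replicate 3). Of the 8 genes, 0 were called, but 1, *Sparcl1*, was called with DESeq2, without the filter and without 0 ppm replicate 3, a range of 0 to 1 with single brains left out.

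*Sparcl1* kept its direction in all 16 alternatives. Its log2 fold change passed the threshold with DESeq2 (0.43, adjusted p 0.0127), without the filter (0.43, adjusted p 0.00307), in the CAST/EiJ alignment with DESeq2 (0.43, adjusted p 0.00804) and without 0 ppm replicate 3, and lay between 0.38 and 0.51 with single brains left out. The fit without the filter tests 27077 genes; the cause of the changed calls was not tested.

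Dropping single brains gave log2 fold changes between 0.15 and 0.22 for *Sparc*, -0.15 and 0.0123 for *Gpc4*, 0.0011 and 0.27 for *Gpc6*, -0.21 and -0.03 for *Thbs1*, -0.0167 and 0.23 for *Thbs2*, -0.24 and -0.12 for *Thbs4*, and -0.24 and 0.0231 for *Chrdl1*. *Gpc6* was at -0.0047 with 0 ppm replicates 1 and 2 left out. None of these 7 genes was called in any alternative. The difference in the log2 ratio of *Sparcl1* to *Sparc* lay between 0.18 and 0.29, that to astrocyte genes between 0.07 and 0.19, and that to endothelial genes between 0.27 and 0.42. Whichever 50 ppm brain was dropped, the exact permutation p of the ratio to *Sparc* was 0.0571, with a difference of 0.23 to 0.26. Whichever 0 ppm brain was dropped, that p was 0.0286. With the median in place of the mean the astrocyte difference was 0.05 (exact permutation p = 0.743).

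Leaving out 0 ppm replicates 1 and 2 together and DESeq2 on the CAST/EiJ alignment were added after the data were seen.

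No paired analysis was possible because the labels give no replicate numbers that match across doses; the numbers used here only name the brains, and every pup came from another litter. Counts limit *Thbs4* most, with 61 reads in its lowest brain.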
